A study of Mus musculus with 20 samples.

Results

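The non-binding form of a T785 immune-stimulating antibody conjugate (ISAC) was compared with its non-binding antibody in mouse tumours. The members are the 5 tumours labelled Isotype T785-ISAC and the 5 labelled Isotype Control, 10 of the 20 tumours measured, and all 770 genes of the panel were read. An ISAC is an antibody that carries a small-molecule agonist of Toll-like receptors, and T785 is the agonist carried here, on an antibody that is not directed at the tumour. The comparison asks how large an effect the agonist has on tumour transcripts when the antibody does not bind the tumour, and which effect sizes the data leave outside their intervals.

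MMC is a mouse mammary tumour line that grows in syngeneic mice. Cells were placed under the skin of FVB/N-TgN(MMTV-Erbb2)NK1Mul/J animals aged 6 to 8 weeks, and treatment began when tumours measured 200 to 500 mm3. By the strain's name, every animal of both groups and of the anti-rHER2 groups carries an Erbb2 transgene driven by the MMTV promoter, which is active mainly in mammary epithelium. The isotype antibody or the isotype T785-ISAC was injected into the peritoneum at a dose of 5 mg/kg, and the tumour was collected on day 1. The other 10 tumours received anti-rHER2 or the anti-rHER2 T785-ISAC at the same dose and day, and they serve below as the comparison with a tumour-binding antibody. The model is 1 transplanted line at 1 dose and 1 time point in hosts of an immunocompetent background, and no untreated tumours or free T785 were analysed here. The labels give each tumour a replicate number, and the study's design text says the 20 tumours came from 20 mice.

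Toll-like receptors 7 and 8 sit in endosomes, where they sense single-stranded RNA and some small molecules. They signal through the adaptor MyD88 to NF-kB, which drives inflammatory cytokine and chemokine genes, and to IRF5 and IRF7, which drive type I interferon. A conjugate reaches these receptors when a myeloid cell takes it up, a step that Fc-gamma receptors favour when the antibody coats a target cell. In macrophages and dendritic cells the pathway raises cytokines, interferon-stimulated genes and co-stimulatory molecules.

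A well-known step of the interferon response is the binding of the ISGF3 complex and IRF factors to an interferon-stimulated response element near the start of a gene. Stretches of 50 bases around such an element are shown for 4 of the genes on which the comparison turns, from RefSeq on GRCm38.p6, each on its gene's own strand with the element in capitals. The letters searched were GAAANNGAAA on both strands, in windows of 300 bases that hold 250 bases before and 50 bases after each gene's start.
Isg15: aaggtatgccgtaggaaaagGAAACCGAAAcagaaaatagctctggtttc
Ifit3: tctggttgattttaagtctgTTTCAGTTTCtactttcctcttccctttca
Cxcl10: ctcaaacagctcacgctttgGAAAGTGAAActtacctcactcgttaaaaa
Fcgr4: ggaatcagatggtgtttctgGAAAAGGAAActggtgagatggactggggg
They lie at chr4:156200861-156200910 on the minus strand (Isg15), chr19:34583387-34583436 on the plus strand (Ifit3), chr5:92349073-92349122 on the minus strand (Cxcl10) and chr1:171018833-171018882 on the plus strand (Fcgr4). Among matches whose 50 bases lie in the window and wholly before the start, Isg15 has 3 that overlap and Ifit3 has 2. Of these, 1 each is shown, and matches nearer to or past the start were not listed.

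These letters occur in 3.44% of 32851 mouse promoter windows and in 51 of the 570 panel genes with a window (8.95%). Of the 21 members of the type I interferon response list with a window, 11 hold them. In the isotype comparison, the median log2 fold change was 0.0056 over the 51 panel genes with the letters and 0.037 over the 519 without. Among the 51, 26 were above 0. A match describes the letters of a window and not a site in use.

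The deposited values are normalized nCounter signals, on a linear scale that is not below 1. Dividing each tumour by 1 step returned whole probe counts, 320787 to 431518 per isotype ISAC tumour and 271793 to 395944 per isotype antibody tumour. The median signal over all genes was 56.3 ± 5.10 (SD, n = 5) in the ISAC tumours and 56.4 ± 5.68 (SD, n = 5) in the antibody tumours, with p = 0.968 in a two-sided exact permutation test. The most abundant transcript in all 10 tumours was Lcn2, which encodes the iron-carrier lipocalin 2. It took 32.0 ± 2.09% of the ISAC signal and 29.4 ± 1.59% of the antibody signal (SD, n = 5 each). The exact permutation p was 0.0556, or 0.278 after Benjamini-Hochberg adjustment over 5 tumour-level quantities, and 5 against 5 allows no p below 0.00794. Marker lists of 10 cell types gave summed signals that overlapped between the groups in every case. Tumour-cell markers, with Epcam and Erbb2 among them, summed to 8310 to 10652 in ISAC tumours and 8208 to 9140 in antibody tumours, and macrophage markers to 1386 to 1587 and 1090 to 1514. Cxcr2, Klrb1c, Cd8a, Cd79a and Ms4a2, which mark neutrophils, natural killer (NK), T, B and mast cells, each had a mean signal below 5. Each was the lowest marker of its list. Other markers of these lists were higher, with S100a8 at 34.7, Ncr1 at 124, Cd4 at 41.1 and Kit at 143. All 4 B cell markers were below 20. In bulk tumour RNA, fewer cells of a type and less RNA per cell cannot be told apart.

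No gene passed the test between the isotype T785-ISAC and the isotype antibody. Each gene was tested as log2(signal + 1) with limma, and a gene was called at a Benjamini-Hochberg adjusted p under 0.05 over the 770 genes. The count was 0 of 770 (0%), and the lowest limma adjusted p was 0.306. At an unadjusted p under 0.05 there were 47 genes (6.10%), 35 of them higher (4.55%) and 12 lower (1.56%) with the conjugate. On the recovered counts, edgeR also called 0 genes with 43 at an unadjusted p under 0.05, and DESeq2 called 0 with 31.

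The fold changes formed a narrow band around a median log2 of 0.034. Of 770 genes, 436 were above 0 (56.6%) and 334 below, and from the 5th to the 95th percentile they ran from -0.38 to 0.48. Only Ccl21a, Cfd and Ifnl2 were past 2-fold in the estimate, all higher, and 33 genes were past 1.5-fold. Every ISAC tumour lay above every antibody tumour for 10 genes (1.30%), namely Amica1, Ccl28, Cdh1, Cebpb, Egr1, Ifnl2, Igf2r, Irf2, Rora and Tyk2. The reverse held for Il10 alone (0.130%). The spread between tumours was alike in both groups, with a median SD of 0.320 on the log2 scale for the conjugate and 0.312 for the antibody.

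**Figure D1:**
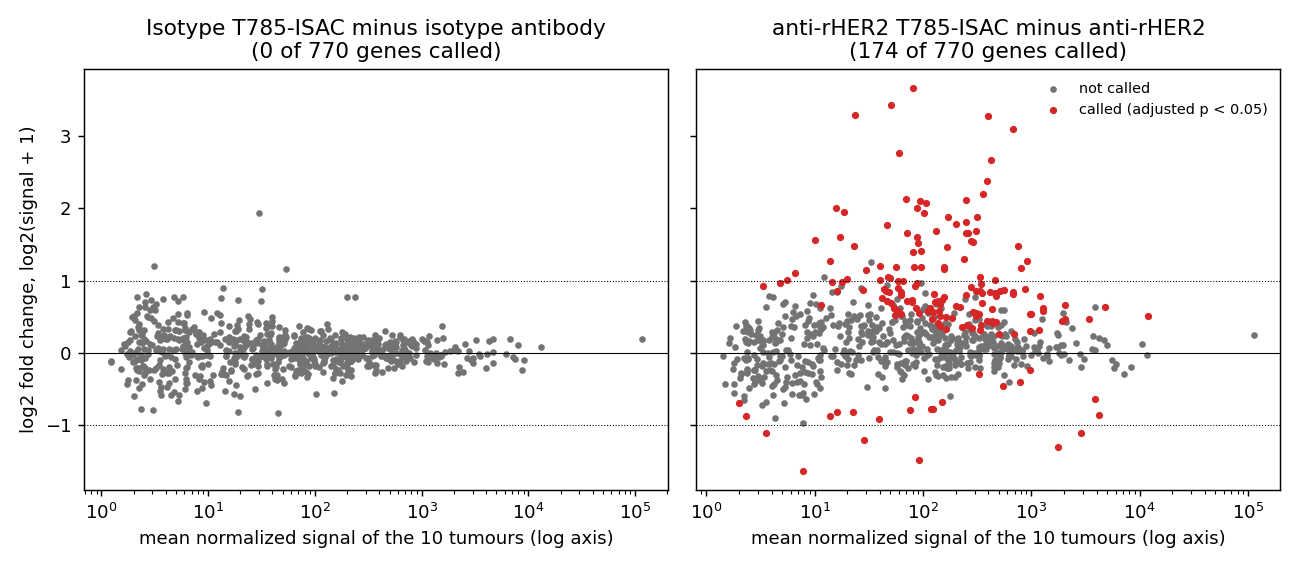
Log2 fold change of each of 770 genes (vertical axis, on the log2(signal + 1) scale) against its mean normalized signal over the 10 tumours compared (horizontal log axis), for the isotype pair (left) and the anti-rHER2 pair (right). Red points are genes called at an adjusted p under 0.05, 0 on the left and 174 on the right, and dotted lines mark 2-fold.

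The width of the intervals sets what the comparison leaves out. The half-width of a gene's 95% interval had a median of 0.43 on the log2 scale, which is 1.35-fold, and ranged from 0.16 to 2.13. To count genes whose change was held inside a margin, an equivalence test was used, made of a pair of one-sided tests against the margin, with its p adjusted over all genes. By it, 669 of 770 genes (86.9%) lay inside 2-fold in either direction, and 372 (48.3%) lay inside 1.5-fold. Without adjustment, the 95% interval lay inside 2-fold for 628 genes, and a Bonferroni interval over all 770 genes did so for 288. An increase above 2-fold stayed within the 95% interval for 84 genes and a decrease below it for 62. Beyond 4-fold, the intervals of 3 genes reached upward and that of 1 reached downward.

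Precision followed the signal. Of the 506 genes with a mean signal of at least 20, 493 lay inside 2-fold (97.4%), against 176 of the 264 below that level (66.7%). Among the 132 genes under a signal of 5, 83 lay inside 2-fold and 2 inside 1.5-fold, with a median half-width of 0.74. Among the 57 genes over 1000, all 57 lay inside 2-fold and 49 inside 1.5-fold, with a median half-width of 0.25. The narrowest intervals among genes of at least 20 belonged to App, C1qbp, Cd164, Polr2a and Yy1. For Polr2a, which encodes the large subunit of RNA polymerase II, the log2 fold change was 0.031 (95% interval -0.13 to 0.19). The widest belonged to C3, Ccl21a, Ccl6, Cfd and Il2ra. Adding 1 to a signal close to the floor pulls a ratio toward 1, so for genes of a few counts the bounds hold for signal + 1 and are wider for the transcript. The level of the assay's own background was not analysed here.

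**Figure D2:**
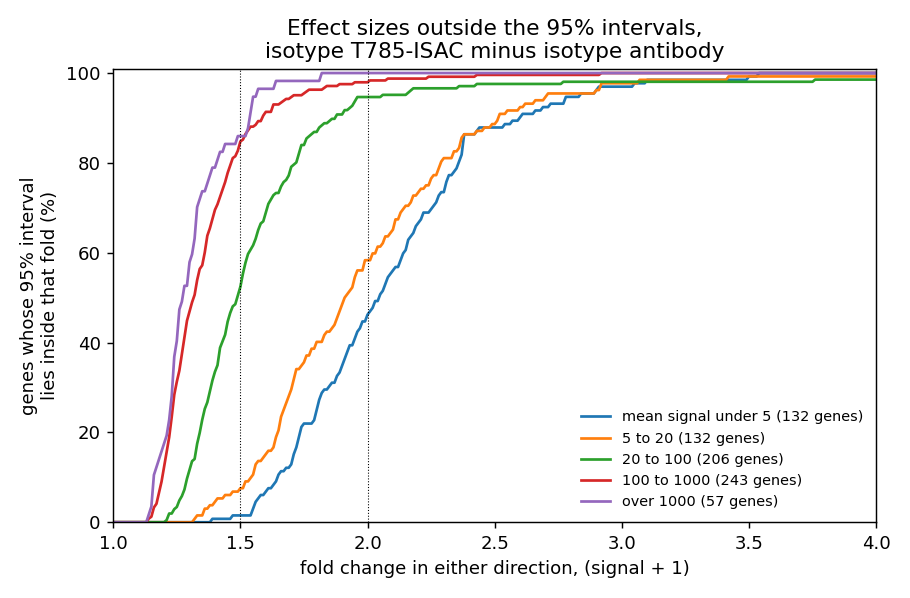
Share of genes (vertical axis, %) whose 95% interval for the isotype comparison lies inside a given fold change in either direction (horizontal axis, on signal + 1), as 1 line per class of mean normalized signal. The lines for abundant genes reach the top at small folds, and the 132 genes below a signal of 5 lag behind.

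A list of 43 key genes of the pathway was read in more detail. It names receptors and adaptors, cytokines, interferon targets, chemokines, Fc-gamma receptors and cell markers, and all 43 were measured. None passed the test, 18 were above 0 and 25 below, and their median log2 fold change was -0.023 beside 0.034 for all genes. By the equivalence test, 39 of 43 lay inside 2-fold, beside 86.9% of all genes, and 14 lay inside 1.5-fold, beside 48.3%. The 4 outside the 2-fold margin were Ccl3, Cd8a, Ifna1 and Il10, each with a mean signal under 10. Il12b passed, but its 95% interval reached down to a log2 fold change of -1.09. The 95% lower bound was above -1 for 38 of 43. The 95% upper bound was under 2-fold for 42 of 43, the exception being Ifna1. These bounds hold for signal + 1. Without the added 1, the upper bounds of Cxcr2, Ifnb1 and Il6 also passed 2-fold, at log2 fold changes of 1.04, 1.04 and 1.30. With Bonferroni intervals over the panel, the upper bound was under 2-fold for 13 and under 4-fold for 40.

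**Figure D3:**
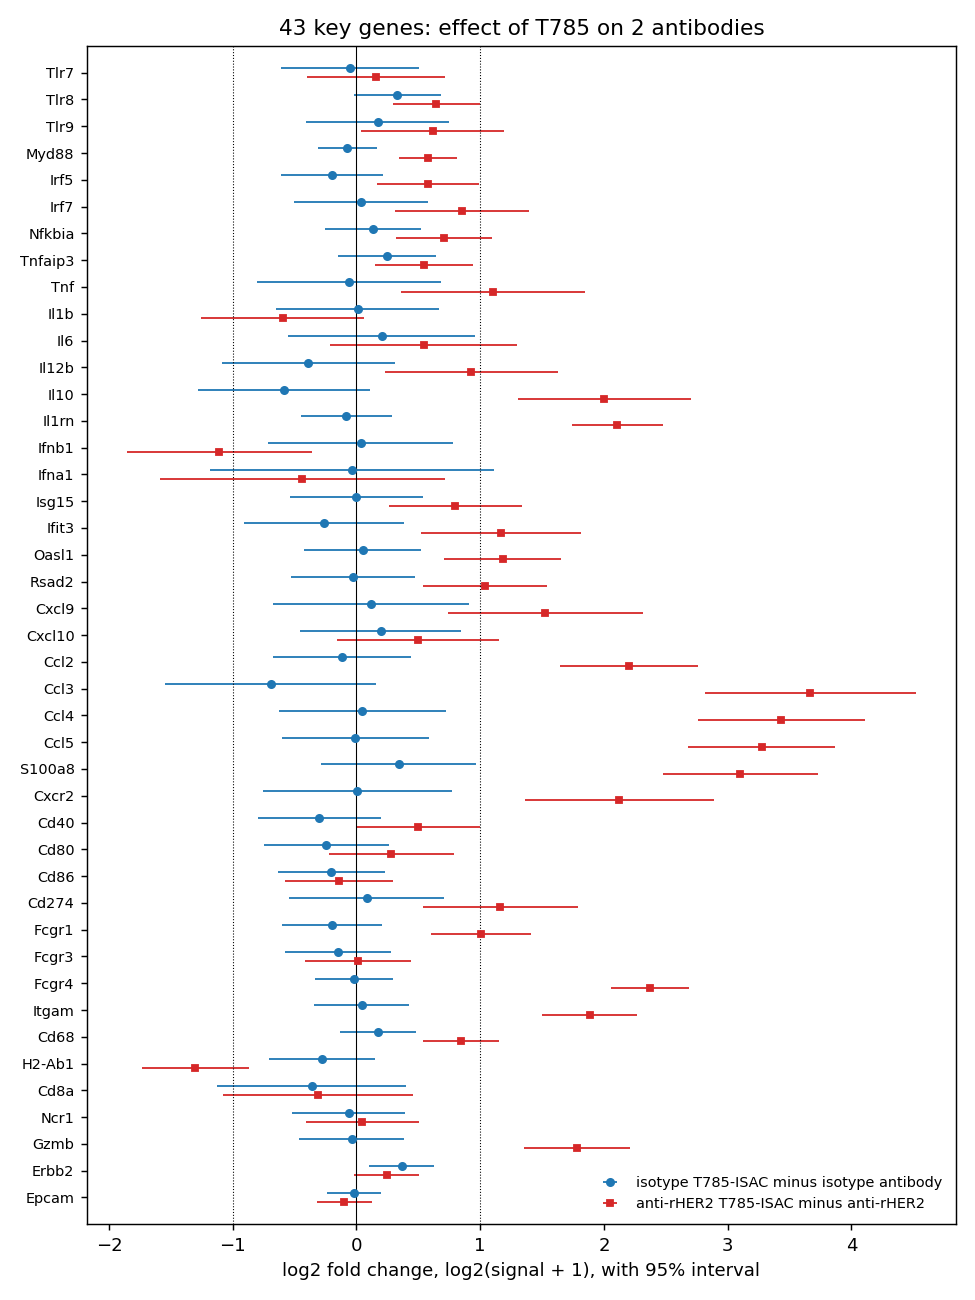
Log2 fold changes of the 43 key genes with 95% intervals (horizontal axis, log2(signal + 1)), for T785 on the isotype antibody (blue circles) and on anti-rHER2 (red squares). The blue intervals cross 0 for every gene but Erbb2, and dotted lines mark 2-fold.

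Among the sensors, Tlr7, which encodes one of the receptors that TLR7/8 agonists engage, read 15.3, 25, 23.1, 24.8 and 15.9 in ISAC replicates 1 to 5 and 33.9, 11.5, 18.9, 27.9 and 20.4 in antibody replicates 1 to 5. All 5 ISAC values fall inside the range of the antibody tumours. The limma estimate was a log2 fold change of -0.053 (95% interval -0.61 to 0.50), so an increase above 1.42-fold or a level below 0.655 times the antibody's was outside the interval. Tlr8, the neighbouring receptor, read 104, 108, 102, 79.2 and 95.4 with the conjugate and 80.0, 49.8, 80.1, 78.4 and 108 with the antibody. The fitted log2 difference was 0.33 (95% interval -0.019 to 0.68), with an unadjusted p of 0.0621 and a limma adjusted p of 0.812. Tlr9, the DNA-sensing relative, had a log2 fold change of 0.17 (95% interval -0.40 to 0.75).

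Myd88, the adaptor these receptors share, was among the better bounded key genes. It read 73.7, 89.7, 74.4, 66.2 and 72.2 in the ISAC tumours and 88.4, 75.7, 90.7, 74.5 and 67 in the antibody tumours. The ranges overlap, and the log2 fold change of -0.072 (95% interval -0.31 to 0.16) left increases above 1.12-fold outside. Irf5, a factor downstream of MyD88, had a log2 fold change of -0.20 (95% interval -0.61 to 0.21). Irf7, which amplifies type I interferon, had a log2 fold change of 0.039 (95% interval -0.50 to 0.58).

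Over the list of endosomal receptor signalling, 29 of 30 genes were measured and 0 passed the test. Inside 2-fold lay 28 of the 29, to be read, like the lists below, beside 86.9% of all genes. The median log2 fold change was 0.039. The exception was Mapk11, the p38-beta kinase, which read 17.2, 20.4, 27.4, 29.6 and 25.7 with the conjugate and 15.1, 13.4, 10.6, 12 and 19.4 with the antibody. Its mean was 24.1 ± 5.09 against 14.1 ± 3.4 (SD, n = 5 each), with the groups overlapping. The estimate was a log2 fold change of 0.73 (95% interval 0.33 to 1.14), with an unadjusted p of 0.00119 and a limma adjusted p of 0.306. Tbk1, a kinase that activates IRF3 and IRF7, had a log2 fold change of 0.25 (95% interval -0.013 to 0.50).

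The NF-kB list had 10 measured members, of which 0 passed the test and all 10 lay inside 2-fold, with a median of 0.11. Nfkbia encodes the inhibitor that NF-kB itself induces, and it is often read as a sign of NF-kB activity. It read 25.8, 29.5, 36.8, 30.7 and 25.7 with the conjugate and 33.9, 25.9, 25.9, 19.9 and 30.1 with the antibody. The groups overlap, and the log2 fold change was 0.13 (95% interval -0.25 to 0.52). Tnfaip3, the A20 feedback inhibitor, had a log2 fold change of 0.25 (95% interval -0.15 to 0.64), and Socs3, a brake on cytokine signalling, at 0.22 (95% interval -0.24 to 0.68).

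Of 19 measured inflammatory cytokine genes, 0 passed the test, 14 were above 0, and 13 lay inside 2-fold, a share below that of the panel, in a list where 9 members had a mean signal of at least 20. Il1rn encodes the interleukin-1 receptor antagonist, a secreted inhibitor made by activated macrophages. It read 63.1, 67, 61.6, 65 and 84.4 in the ISAC tumours and 80.9, 65.1, 75.4, 58.5 and 81.5 in the antibody tumours. ISAC replicate 5 was the highest of all 10, and the other 4 ISAC values fell inside the range of the antibody tumours. On the log2 scale the difference was -0.080 (95% interval -0.45 to 0.29), which puts increases above 1.22-fold outside.

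Tnf, Il6 and Il12b, classical products of the pathway, were near the lower end of the assay, with mean signals over the 10 tumours of 6.2, 3.78 and 10.3. Their log2 fold changes were -0.060 (95% interval -0.80 to 0.68), 0.20 (95% interval -0.55 to 0.96) and -0.39 (95% interval -1.09 to 0.31). In recovered counts, the 5 tumours of a group held 28 Tnf counts with the conjugate and 32 with the antibody, a ratio of 0.871 after scaling with a 95% interval of 0.505 to 1.49 for counting error only. At this depth the limma interval of Tnf took in both a 1.5-fold increase and a 1.5-fold decrease. Il1b, the interleukin-1 beta gene, was more abundant, at 97.3 ± 50.2 against 85.1 ± 8.64 (SD, n = 5 each), and its log2 fold change was 0.013 (95% interval -0.65 to 0.67).

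Il10, which encodes an anti-inflammatory cytokine, was the gene for which every ISAC tumour lay below every antibody tumour. It read 2.87, 3.41, 2.56, 3.55 and 1.22 with the conjugate and 4.7, 3.83, 5.89, 3.99 and 3.88 with the antibody. These are 1 to 3 counts per ISAC tumour and 3 to 5 per antibody tumour. The ratio of summed counts was 0.616 (95% interval 0.284 to 1.29, counting error only). In log2 terms its fold change was -0.58 (95% interval -1.28 to 0.11), with a limma adjusted p of 0.843.

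Interferon genes themselves were near the floor. Ifna1 and Ifnb1, type I interferons, held 19 and 15 counts over the 5 ISAC tumours and 19 and 12 over the 5 antibody tumours. Their log2 fold changes were -0.036 (95% interval -1.19 to 1.12) and 0.036 (95% interval -0.71 to 0.78). The receptor chains Ifnar1 and Ifnar2 were well measured, and their log2 fold changes of 0.037 (95% interval -0.15 to 0.22) and 0.044 (95% interval -0.19 to 0.28) left changes above 1.16-fold and 1.21-fold upward outside.

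The interferon targets give a firmer reading than the interferons. Isg15, the ubiquitin-like modifier whose element is printed above, read 84.2, 146, 177, 181 and 121 in ISAC tumours and 169, 98.7, 157, 117 and 157 in antibody tumours. The groups overlap over most of their range. Its log2 fold change was -0.0020 (95% interval -0.54 to 0.54), so that increases above 1.45-fold lay outside the interval.

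Ifit3, an antiviral protein of the same response, read 195, 402, 534, 495 and 300.9 with the conjugate and 527, 320.0, 663, 294 and 475 with the antibody. The lowest of all 10 values came from ISAC replicate 1, and the highest 2 came from 1 tumour of each group. The limma estimate was a log2 fold change of -0.26 (95% interval -0.91 to 0.38), and increases above 1.31-fold lay outside. Oasl1 and Rsad2, also interferon-induced antiviral genes, had a log2 fold change of 0.053 (95% interval -0.42 to 0.53) and -0.028 (95% interval -0.53 to 0.47).

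In the type I interferon response list, 29 of 33 genes were measured, 0 passed the test, 10 were above 0 and 19 below, with a median of -0.028. Inside 2-fold lay 28 of 29. The members Ifitm1, a membrane antiviral protein, and Ifi44 had log2 fold changes of 0.40 (95% interval -0.16 to 0.95) and -0.27 (95% interval -0.82 to 0.27). Tumours differed among themselves in this list. Its mean log2 signal per tumour ran from 6.66 in ISAC replicate 1 to 7.30 in ISAC replicate 3, and from 6.84 in antibody replicate 4 to 7.36 in antibody replicate 5, with an SD of 0.255 in both groups.

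Of 20 measured genes of the interferon-gamma response and CXCR3 axis, 0 passed and 18 lay inside 2-fold, with a median of -0.027. Cxcl10, a chemokine that draws CXCR3-bearing T and NK cells, read 38.3, 114, 159.9, 92.2 and 71 with the conjugate and 102, 67.1, 87.2, 54.5 and 70.9 with the antibody. The fitted log2 difference was 0.20 (95% interval -0.46 to 0.85). Cxcl9, a related chemokine, had a log2 fold change of 0.12 (95% interval -0.67 to 0.91), and Cd274, which encodes PD-L1, at 0.082 (95% interval -0.55 to 0.71). For Cxcl9 an increase of up to 1.88-fold was within the interval.

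Of the chemokine and receptor genes that draw monocytes and T cells, 8 of 21 were called higher with T785 on anti-rHER2, beside 19.6% of all genes, and 0 on the isotype antibody. Ccl2, the main monocyte attractant, read 69.8, 80.6, 133, 88.7 and 95.4 in ISAC tumours and 107, 108, 95.5, 67.8 and 126 in antibody tumours. The 2 sets overlap over most of their range. The estimate was a log2 fold change of -0.12 (95% interval -0.67 to 0.44), and increases above 1.36-fold lay outside.

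Ccl5, a T cell and NK cell attractant, read 52.6, 42, 49.6, 30.7 and 37.9 with the conjugate and 46.1, 23.9, 64.8, 30.6 and 60.2 with the antibody. On the log2 scale the difference was -0.010 (95% interval -0.60 to 0.58). Ccl3 and Ccl4, macrophage inflammatory proteins, were low. Ccl3 read 7.65, 9.08, 9.4, 3.55 and 4.89 with the conjugate and 8.47, 11.5, 16.5, 5.32 and 19.4 with the antibody, and its log2 fold change was -0.69 (95% interval -1.54 to 0.16). Ccl4 had a log2 fold change of 0.049 (95% interval -0.63 to 0.72). Of the list's 21 measured genes, 0 passed the test, 9 were above 0 and 17 lay inside 2-fold, and the median was -0.089.

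The neutrophil and CXCR2 list had 22 measured genes, 0 past the test, 16 above 0 and 17 inside 2-fold, with a median of 0.065. S100a8, a calgranulin that neutrophils carry in large amounts, read 46.9, 44.3, 23.9, 49.7 and 30.6 with the conjugate and 41.4, 22, 25.9, 37.2 and 25.2 with the antibody. In log2 terms its fold change was 0.34 (95% interval -0.28 to 0.97), which leaves up to 1.96-fold within the interval. Cxcr2, the receptor for neutrophil-attracting chemokines, held 17 counts in each group, with a log2 fold change of 0.0070 (95% interval -0.76 to 0.77). Cxcl1, a ligand of that receptor, had a log2 fold change of -0.28 (95% interval -0.74 to 0.17).

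Fc-gamma receptors bind the constant part of antibodies on myeloid cells, and all 11 measured genes of that list lay inside 2-fold. None passed the test, and the median log2 fold change was -0.023. Fcgr4, an activating receptor of monocytes, macrophages and neutrophils, read 135, 132, 124, 104 and 144 in ISAC tumours and 109, 123, 140.2, 150.2 and 127 in antibody tumours. The 2 sets overlap, and the log2 fold change was -0.023 (95% interval -0.34 to 0.29). Increases above 1.22-fold were outside the interval, and its equivalence test gave a limma adjusted p of 7.69e-06 for a change inside 2-fold.

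The other receptors also had intervals inside 2-fold. Fcgr1 had a log2 fold change of -0.20 (95% interval -0.60 to 0.21), and Fcgr3 at -0.15 (95% interval -0.58 to 0.28). Itgam, the CD11b integrin chain of myeloid cells, read 75.6, 88.6, 65.8, 62.7 and 117 with the conjugate and 69.6, 60.4, 90.7, 79.8 and 92.2 with the antibody. Its log2 fold change was 0.042 (95% interval -0.34 to 0.42). Cd68, a macrophage lysosomal protein, had a log2 fold change of 0.18 (95% interval -0.13 to 0.48). Of 20 measured macrophage and monocyte genes, 0 passed and 19 lay inside 2-fold, with a median of 0.015.

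In the list of dendritic cells and co-stimulation, 0 of 20 measured genes passed the test and 14 lay inside 2-fold, while 8 had a mean signal of at least 20. Cd40, Cd80 and Cd86, co-stimulatory molecules that TLR agonists raise on antigen-presenting cells, had log2 fold changes of -0.30 (95% interval -0.79 to 0.20), -0.24 (95% interval -0.75 to 0.26) and -0.20 (95% interval -0.64 to 0.23). All 3 estimates were below 0, and increases above 1.15-fold, 1.2-fold and 1.18-fold lay outside. Cd83, a marker of mature dendritic cells, read 101.4, 107, 114, 137 and 138 with the conjugate and 183, 103, 245, 217 and 161 with the antibody. That is a log2 fold change of -0.55 (95% interval -1.06 to -0.054), with an unadjusted p of 0.0317 and a limma adjusted p of 0.744.

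Antigen presentation was read from the MHC class I and class II genes. Of 14 measured MHC class I genes, 0 passed and 13 lay inside 2-fold, with a median of -0.0065. Of 11 measured MHC class II genes, 0 passed and 10 lay inside 2-fold, with a median of -0.034. H2-Ab1, a class II beta chain, read 1448, 1701, 2675, 1884 and 2245 with the conjugate and 2724, 1742, 3166, 1922 and 2529 with the antibody. The fitted log2 difference was -0.28 (95% interval -0.71 to 0.15).

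Lymphocyte genes were mostly of low signal, and their intervals were wide. Among 36 measured NK and cytotoxic genes, 0 passed, 24 were below 0 and 32 lay inside 2-fold, with a median of -0.079. Gzmb, the cytotoxic protease granzyme B, read 43, 80.6, 72.7, 75.7 and 75.8 with the conjugate and 68.7, 92.9, 81.3, 78.4 and 40.8 with the antibody. ISAC replicate 1 stood below the other 4, and the log2 fold change was -0.039 (95% interval -0.47 to 0.39). Ncr1, the NK cell receptor NKp46, had a log2 fold change of -0.064 (95% interval -0.52 to 0.40). Cd8a, the CD8 T cell chain, held 22 counts in the ISAC tumours and 26 in the antibody tumours, with a log2 fold change of -0.36 (95% interval -1.13 to 0.40).

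Of 23 measured T cell genes, 0 passed and 18 lay inside 2-fold, and of 16 B cell genes, 0 passed and 11 lay inside. Cd69, an early activation marker of lymphocytes, had a log2 fold change of 0.43 (95% interval 0.065 to 0.79) and a limma adjusted p of 0.744. Cd4, the helper T cell co-receptor, had a log2 fold change of -0.31 (95% interval -0.87 to 0.26). In the checkpoint and regulatory T cell list, 0 of 20 passed and 12 lay inside 2-fold. Its member Lag3, an inhibitory receptor, had a log2 fold change of -0.42 (95% interval -0.79 to -0.056), with an unadjusted p of 0.0261 and a limma adjusted p of 0.744.

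The tumour and stromal lists were tightly bounded. All 9 measured epithelial genes, all 14 fibroblast and matrix genes, all 8 proliferation genes and all 21 measured reference genes lay inside 2-fold, and 0 passed the test in each. In list order, 9, 13, 6 and 21 of them had a mean signal of at least 20. Of all panel genes at that signal, 97.4% lay inside 2-fold. The mean log2 signal of the 21 reference genes hardly varied between tumours, with an SD of 0.015 in ISAC tumours and 0.012 in antibody tumours. A normalization to such genes would hold their mean level still in advance, so their count is not a separate bound on the effect. Epcam, the epithelial adhesion molecule, read 5475, 6312, 5614, 7192 and 6193 in ISAC tumours and 6099.8, 5819.6, 6449, 6533 and 6163 in antibody tumours. The estimate was a log2 fold change of -0.019 (95% interval -0.24 to 0.20).

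Erbb2 was the only key gene with an unadjusted p under 0.05. It read 1917, 1744, 1439.7, 2041 and 1617 with the conjugate and 1497, 1296, 1301, 1497 and 1177 with the antibody. The groups overlap, and the log2 fold change was 0.37 (95% interval 0.10 to 0.63), with an unadjusted p of 0.00879 and a limma adjusted p of 0.718. Whether the probe reads the mouse gene, the transgene or both is not stated in the labels. Cdh1, the E-cadherin gene, read 1315, 1196, 1194, 1362 and 1204 with the conjugate and 1103, 1048, 1013, 1070.2 and 1113 with the antibody. Every ISAC tumour was above every antibody tumour, at a log2 fold change of 0.23 (95% interval 0.057 to 0.40) and a limma adjusted p of 0.744. Birc5, the survivin gene of dividing cells, had a log2 fold change of 0.39 (95% interval 0.12 to 0.66), with an unadjusted p of 0.00676.

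Complement, endothelial and mast cell and eosinophil genes complete the lists. Of 30 complement genes 0 passed and 25 lay inside 2-fold, with a median of -0.033. Of 19 endothelial genes 0 passed and 17 lay inside, with a median of 0.093. Tie1, a receptor of vascular endothelium, had a log2 fold change of 0.34 (95% interval 0.10 to 0.59), with an unadjusted p of 0.00901. Of 12 mast cell and eosinophil genes 0 passed and 7 lay inside 2-fold, and their median of -0.17 was the lowest of all lists, beside 0.12 for fibroblast and matrix genes as the highest. Of these 12, 2 had a mean signal of at least 20.

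**Figure D4:**
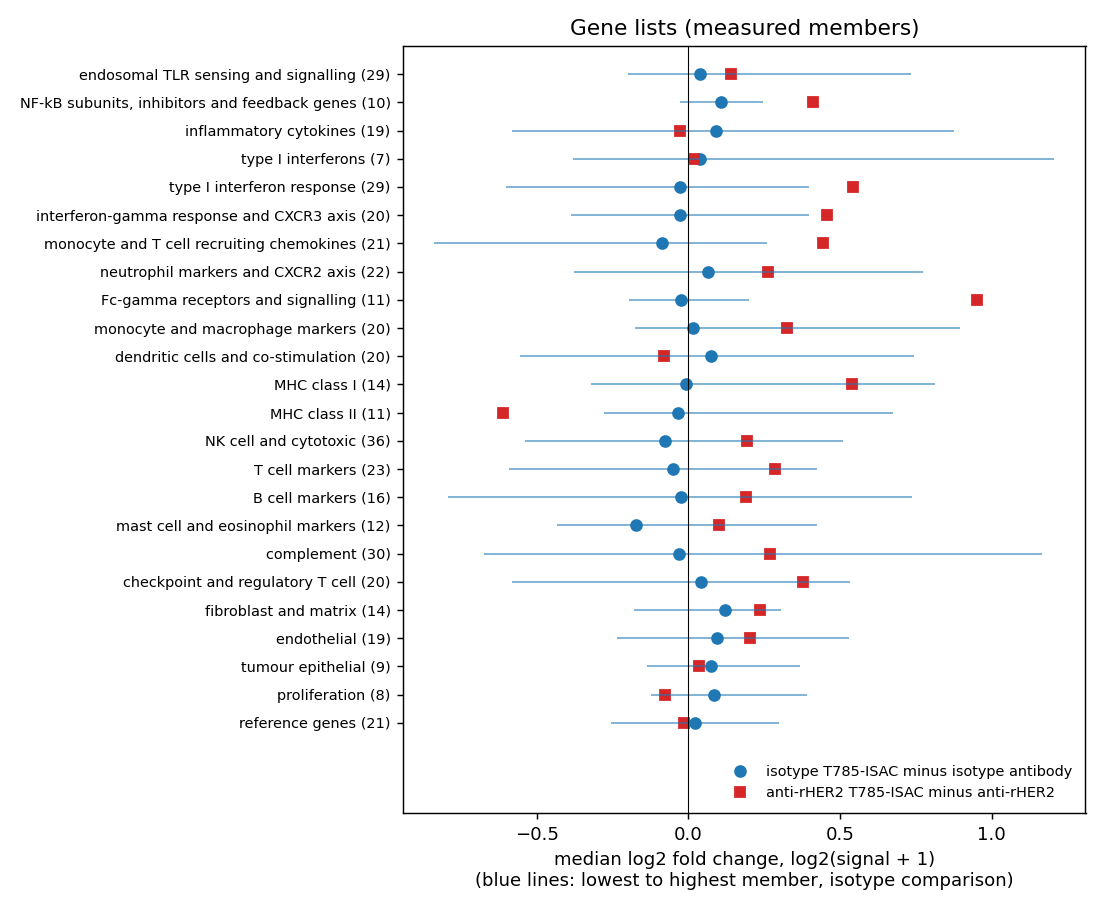
Median log2 fold change of each gene list (horizontal axis, log2(signal + 1); number of measured members in brackets), for T785 on the isotype antibody (blue circles, with lines from the lowest to the highest member) and on anti-rHER2 (red squares). The isotype medians run from -0.17 to 0.12.

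The 5 genes with the lowest unadjusted p were Ifnl2, Prdm1, Mapk11, Tyk2 and Egr1, all higher with the conjugate and none past the adjusted threshold. Ifnl2, which encodes interferon lambda 2, read 4.78, 3.41, 5.98, 4.73 and 4.89 in the ISAC tumours and 1, 1.92, 2.36, 1.33 and 1 in the antibody tumours. Every ISAC tumour was above every antibody tumour. The values stand for 3 to 7 counts per ISAC tumour and 1 or 2 per antibody tumour, 23 against 7 in all, a ratio of 3.27 with a 95% interval of 1.36 to 9.03 for counting error only. Of the antibody tumours, 3 were at 1 count, the lowest count found in any tumour. Whether lower counts were set to 1 is not stated, and the interval makes no allowance for it.

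The log2 fold change of Ifnl2 was 1.21 (95% interval 0.61 to 1.81), with an unadjusted p of 0.000485 and a limma adjusted p of 0.306. When limma was fitted to the 10 isotype tumours alone, the adjusted p was 0.0319 and Ifnl2 was the 1 gene called. Over the 20 limma settings its adjusted p ran from 0.0319 to 0.59, and on the recovered counts it was 0.598 with edgeR and 0.993 with DESeq2. In the tumours of the anti-rHER2 pair it read 5.49, 4.28, 3.1, 2.54 and 5.6 with the conjugate and 6.51, 1.99, 1.65, 5.92 and 6.45 with the antibody alone. Those values overlap each other and run from 1.65 to 6.51. That range takes in the isotype ISAC values and the isotype antibody values of 1.92 and 2.36, but not those of 1 and 1.33. The log2 fold change of the anti-rHER2 pair was 0.020 ± 0.29 (SE). The interaction, the difference between the fold changes of the anti-rHER2 and isotype pairs, was -1.19 ± 0.40 (SE), with a limma adjusted p of 0.096.

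Prdm1, which encodes the transcription factor Blimp-1 of plasma cells and effector lymphocytes, read 51.7, 40.9, 38.5, 30.7 and 34.2 with the conjugate and 20.7, 35.4, 23.6, 15.9 and 23.3 with the antibody. The groups overlap. On the log2 scale the difference was 0.72 (95% interval 0.33 to 1.12), with an unadjusted p of 0.00119 and a limma adjusted p of 0.306. Tyk2, a Janus kinase of interferon receptors, read 45, 43.1, 42.8, 56.8 and 44 with the conjugate and 40.5, 35.4, 28.3, 30.6 and 28.1 with the antibody. Every ISAC tumour was above every antibody tumour, by a log2 fold change of 0.50 (95% interval 0.19 to 0.81) and a limma adjusted p of 0.622.

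Egr1 and Fos, immediate-early transcription factor genes, were among the 8 highest fold changes of genes with a mean signal of at least 20. Egr1 read 294, 251, 252.2, 464 and 247 with the conjugate and 158, 161, 126, 201 and 223 with the antibody. No ISAC tumour fell within the antibody range, ISAC replicate 4 stood apart at the top, and the log2 fold change was 0.77 (95% interval 0.27 to 1.28) with a limma adjusted p of 0.698. Fos read 223, 186, 233, 259 and 300.9 with the conjugate and 79, 97.7, 152, 126 and 345 with the antibody. In log2 terms its fold change was 0.77 (95% interval -0.0016 to 1.54). Ptgs2, the inducible cyclooxygenase gene, had a log2 fold change of 0.88 (95% interval -0.16 to 1.91), so that up to 3.76-fold was within the interval. Fas, a death receptor, had a log2 fold change of 0.51 (95% interval 0.046 to 0.97).

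Among genes with a mean signal of at least 20, Ccl21a and Cfd had the 2 largest estimates, with wide intervals. Ccl21a, a chemokine of lymphatic vessels and lymph node stroma, read 110.0, 45.4, 18.8, 46.1 and 18.4 with the conjugate and 20.7, 17.2, 14.1, 5.32 and 1.94 with the antibody. The groups overlap, and the values of each group are spread several-fold among themselves. Its log2 fold change was 1.94 (95% interval 0.25 to 3.63), with a limma adjusted p of 0.744. Cfd, the adipocyte serine protease adipsin, read 44, 144, 14.5, 69.8 and 45.3 with the conjugate and 41.4, 4.79, 8.25, 15.9 and 150.5 with the antibody. That is a log2 fold change of 1.17 (95% interval -0.96 to 3.29), so a 2-fold increase was within the interval and a 2-fold decrease just outside it.

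At the lower end, the 8 genes were Ccl6, Clec4n, Cd83, Cxcr6, Lag3, Clec5a, Xcl1 and Clec7a. Clec4n, which encodes dectin-2, a C-type lectin of myeloid cells, read 67.9, 67, 89.8, 79.2 and 103 with the conjugate and 104, 90.0, 153, 152 and 111 with the antibody. The fitted log2 difference was -0.56 (95% interval -1.01 to -0.12), with an unadjusted p of 0.0154 and a limma adjusted p of 0.744. Clec7a, the beta-glucan receptor dectin-1, and Clec5a, another myeloid lectin, had a log2 fold change of -0.38 (95% interval -0.93 to 0.17) and -0.42 (95% interval -0.96 to 0.12). Xcl1, a chemokine made by NK and CD8 T cells, had a log2 fold change of -0.39 (95% interval -0.74 to -0.036), and Cxcr6, a chemokine receptor of T and NK cells, at -0.50 (95% interval -1.10 to 0.10).

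Ccl6, a myeloid chemokine, had the lowest estimate of all. It read 39.2, 55.6, 63.3, 1.18 and 26.9 with the conjugate and 66.8, 9.58, 69.5, 39.9 and 77.7 with the antibody. ISAC replicate 4 was at 1.18 while the other 4 ISAC tumours were between 26.9 and 63.3. The estimate was a log2 fold change of -0.84 (95% interval -2.63 to 0.96), with a limma adjusted p of 0.928.

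**Figure D5:**
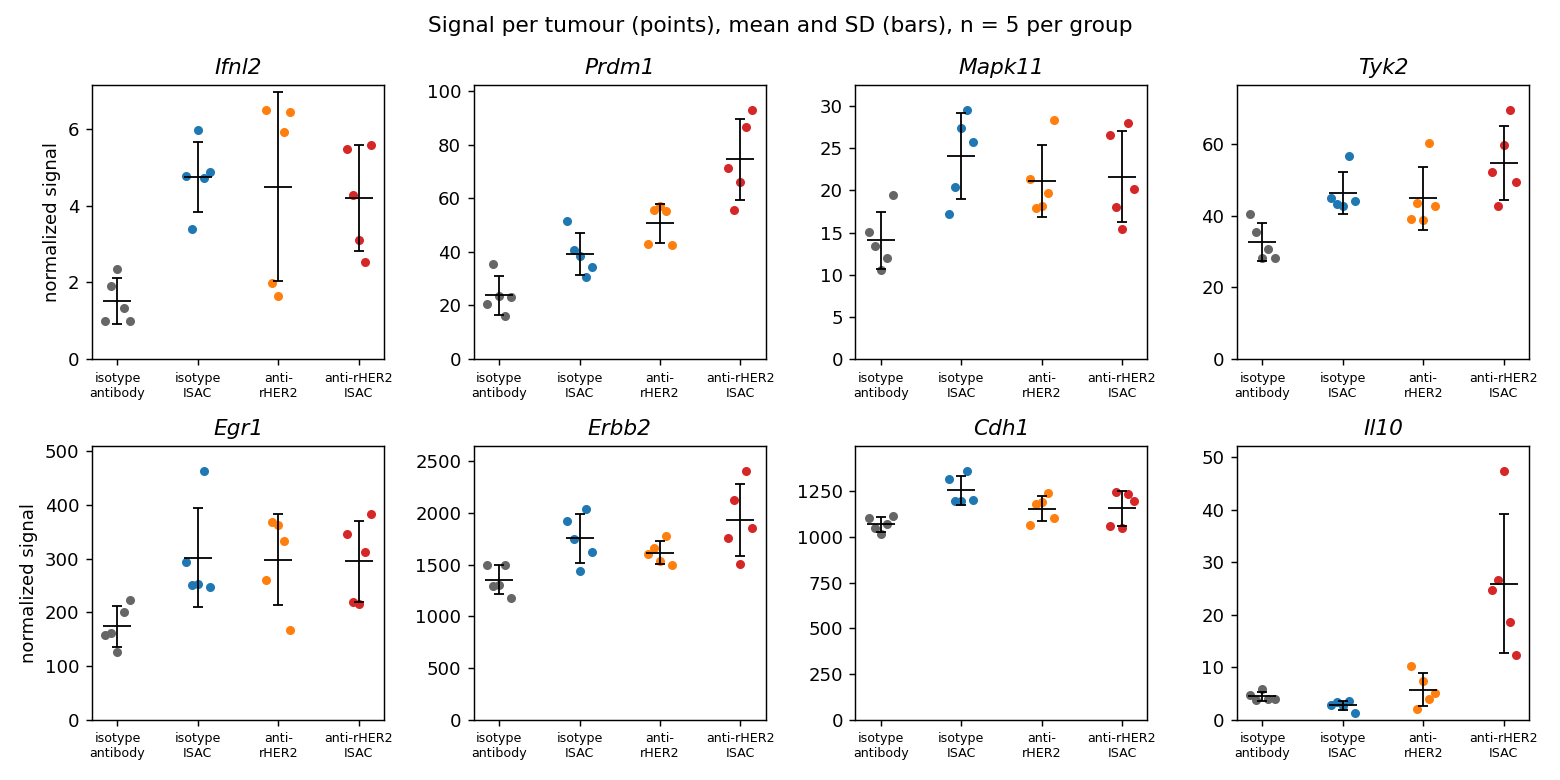
Normalized signal per tumour (vertical axis, points), with mean and SD (bars, n = 5 per group), for selected genes in the 4 treatment groups. For Ifnl2 the isotype antibody tumours lie between 1 and 2.36 and all isotype ISAC tumours above them, and for Il10 the anti-rHER2 T785-ISAC tumours stand above the other 3 groups.

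The same agonist on anti-rHER2 gives the scale against which these bounds can be read. That comparison uses the other 10 tumours, so it shares none with the isotype pair. There limma called 174 of 770 genes (22.6%) at an adjusted p under 0.05, 151 higher (19.6%) and 23 lower (2.99%). Its median log2 fold change was 0.16, and the split between higher and lower depended on scaling. With equal medians it was 61 higher and 188 lower, as the median of all genes moved by -0.41. Median-ratio scaling gave 87 and 51 (a shift of -0.18), and quantile normalization 80 and 121 (a shift of -0.26). Equal means of the reference genes gave 151 and 23 again. For the isotype pair the median moved by less than 0.1 under each of these scalings.

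Over the 151 genes called higher on anti-rHER2, the median log2 fold change was 0.86 on anti-rHER2 and 0.039 on the isotype antibody. In the isotype pair, 92 of the 151 were above 0, beside 56.6% of all genes. There, 11 of the 151 reached an unadjusted limma p under 0.05 on the higher side and 0 on the lower, beside 4.55% and 1.56% of all genes. The upper 95% bound of the isotype fold change lay below the anti-rHER2 estimate for 133 of the 151, and below 0.5 times it for 67. The 151 genes and the 57 below were chosen by their anti-rHER2 values, which favours high estimates there. Those estimates are used here without their own intervals. Of the 57 genes called and more than 2-fold higher on anti-rHER2, with a median of 1.60, the isotype median was -0.010 and the upper bound was under 2-fold for 54. Of the 23 called lower, 17 had an isotype log2 fold change below 0, and the medians were -0.81 and -0.14. Across the 770 genes, the fold changes of the pairs had a Pearson r of -0.015 and a Spearman rho of 0.043. Genes are not independent replicates, and the values describe these tumours.

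The difference itself was tested as an interaction. It was called for 55 genes (7.14%), 53 with the larger effect on anti-rHER2 in the upward direction (6.88%) and 2 downward (0.260%), H2-Ab1 and H2-Ea-ps. With equal medians there were 83, split into 36 and 47. Of the 55, 54 were also among the 174 (98.2% of the 55 and 31.0% of the 174), the exception being Ada, adenosine deaminase. Of the 57 genes over 2-fold, which were picked by anti-rHER2 values that the interaction also uses, 40 passed the interaction test. For the other genes a difference between the pairs was not shown by this test.

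Among the key genes, 26 of 43 rose and 2 fell on anti-rHER2, beside 19.6% and 2.99% of all genes. The key genes and the other lists were chosen with earlier results of these data known, so such shares do not test for enrichment. For 24 of the 26, which were picked by their anti-rHER2 values, the isotype upper bound was below the anti-rHER2 estimate. The exceptions were Tlr8 and Tnfaip3. All 26 stayed above 0 under each of 4 other scalings, with 18 to 26 still called. The interaction was called for 14 of 43 upward, beside 6.88% of all genes, with 12 to 14 of them called under those scalings, and for H2-Ab1 downward. Fcgr4 read 636, 576, 863, 535 and 655 in the anti-rHER2 ISAC tumours and 127, 93.3, 123, 166 and 117 in the anti-rHER2 tumours. These groups do not overlap, and the log2 fold change was 2.38 ± 0.15 (SE), with an interaction of 2.40 ± 0.21 (limma adjusted p = 7.8e-07). Beside it, the isotype upper bound for Fcgr4 was 1.22-fold.

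Among the key genes, Ccl3, Ccl4 and Ccl5 had the largest interactions. Ccl3 rose by a log2 fold change of 3.67 ± 0.41 on anti-rHER2 and had an interaction of 4.36 ± 0.58 (SE, limma adjusted p = 5.1e-05). Ccl4 and Ccl5 rose by 3.43 ± 0.32 and 3.28 ± 0.28, with interactions of 3.38 ± 0.45 and 3.29 ± 0.40. Ccl2 rose by 2.20 ± 0.27, with an interaction of 2.32 ± 0.38 (limma adjusted p = 0.000321). The isotype intervals of these genes ended at 1.12-fold, 1.65-fold, 1.5-fold and 1.36-fold.

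The neutrophil and myeloid genes S100a8, Il1rn and Itgam rose on anti-rHER2 by 3.10 ± 0.30, 2.11 ± 0.18 and 1.89 ± 0.18 on the log2 scale (SE), and the interaction was called for each. Gzmb rose by 1.78 ± 0.20, with an interaction of 1.82 ± 0.29. Myd88 rose by 0.58 ± 0.11, with an interaction of 0.65 ± 0.16 and a limma adjusted p of 0.0125. H2-Ab1 fell on anti-rHER2, with a log2 fold change of -1.30 ± 0.21 and an interaction of -1.02 ± 0.29.

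For most interferon targets the interaction did not pass. Isg15 rose on anti-rHER2 by 0.80 ± 0.26, and its interaction was 0.80 ± 0.36 (limma adjusted p = 0.213). Ifit3 rose by 1.17 ± 0.31, with an interaction of 1.43 ± 0.44 and a limma adjusted p of 0.056. Oasl1 rose by 1.18 ± 0.23, and its interaction of 1.13 ± 0.32 was called. Cxcl10 did not pass on anti-rHER2, at 0.50 ± 0.31 (limma adjusted p = 0.299). Of the type I interferon response list, 13 of 29 rose on anti-rHER2 and 0 fell, beside 19.6% and 2.99% of all genes. The interaction was called upward for 3 of 29, beside 6.88% of all genes. Of the panel genes with the printed element's letters, 14 of 51 were called higher and 1 lower on anti-rHER2, beside 93 and 14 of the 519 without.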

How the data were processed

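Per the labels, total RNA of 20 tumours was measured with nCounter probes. The deposited values are a normalized signal on a linear scale, made by the authors from probe counts. The normalization, software, runs and background handling are not stated there. In the values, the mean log2 signal of the 21 reference genes was nearly equal, at 8.73 to 8.76 in each isotype group. Setting these means equal left 669 genes inside 2-fold, as in the main fit, so the values behave as if already scaled to these genes. In every tumour, 100% of values above 1 and up to 1000 were whole multiples of 1 step (0.826 to 1.33) within 0.02 of a count, which returned whole counts. The lowest count in every tumour was 1, and whether lower counts were set to 1 is not stated.

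Groups came from the treatment label. log2(signal + 1) was fitted with limma 3.58.1 (R 4.3.3) over all 20 tumours with 1 mean per group and eBayes without trend, 2-sided, adjusted by Benjamini-Hochberg over 770 genes, with no filter. Equivalence tests used margins of 2-fold and 1.5-fold. Single values per tumour had exact permutation tests. As alternatives, edgeR 4.0.16 kept the deposited scaling and DESeq2 1.42.0 used its own size factors, both on the recovered counts; other scalings, pseudocounts, a filter, weights, priors, a replicate block and leaving out each tumour were also tried. The method was tested on simulated data. Named genes were taken, by rule, from the key genes, the 8 highest and 8 lowest fold changes at a mean signal of at least 20, the 5 lowest p, and, again at a mean signal of at least 20, the 2 largest changes of each list and the 5 widest and 5 narrowest intervals. Of the genes selected so, 1 is not reported here, and others are left undescribed or only counted with their list. The 10 genes with every ISAC tumour above every antibody tumour, H2-Ea-ps and Ada were named after their values were seen, as were Lcn2 and the low cell markers. Members, lists and tests were chosen with earlier results of these data known.

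Of 770 symbols, 762 matched RefSeq, and 570 had a promoter window. Within groups, no pair of tumours was identical (chi-square per degree of freedom of at least 3.85). Nothing in the labels ties equal replicate numbers across groups. In the main fit, limma p-values and intervals set a difference against a spread between tumours that is shared by all 4 groups, anti-rHER2 tumours included. Intervals from counts cover counting error only.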

Additional observations from a re-analysis of the deposited data

Results flagged for a closer look

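In 202 groups of 5 tumours (the named genes and tumour-level values in the 2 isotype groups), 12 had a highest or lowest tumour that stood apart from the other 4 by Dixon's criterion (5.94%, where chance gives about 5%). Of the ISAC tumours, replicate 4 stood apart in 5 genes. It was low for Ccl6, at 1.18 beside 26.91 to 63.27, and for Tie1, at 74.5. It was high for Egr1 at 463.53 beside 247.1 to 293.71, for Masp1 at 247.14, and for Tyk2 at 56.76. ISAC replicate 1 was low for Gzmb, at 43.05 beside 72.67 to 80.61, and high for Ccnd3, at 109.07. ISAC replicate 3 was low for Polr1b, at 50.44, and for the share of signal taken by Lcn2, at 28.3872%. ISAC replicate 5 was high for Il1rn, at 84.4. Antibody replicate 2 was low for Cd4, at 20.12 beside 46.1 to 60.1, and for Ifitm1, at 11.5.

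For 16 of the 98 named genes the effect of T785 differed between anti-rHER2 and the isotype antibody by limma's interaction test, beside 55 of all 770 genes (7.14%). The lists behind the named genes were chosen with earlier results of these data known, so these shares do not test for enrichment. The differences on the log2 scale, anti-rHER2 pair minus isotype pair, were 4.36 for Ccl3, 3.38 for Ccl4, 3.29 for Ccl5 and 2.32 for Ccl2 among chemokines. They were 2.76 for S100a8, 2.12 for Cxcr2 and 1.84 for Itgam among myeloid genes, and 2.40 for Fcgr4 and 1.20 for Fcgr1 among Fc-gamma receptors. Il10 and Il1rn, cytokine genes, differed by 2.59 and 2.19, and Gzmb by 1.82. Ifitm1 and Oasl1, interferon targets, differed by 1.53 and 1.13, and Myd88 by 0.65. H2-Ab1 differed in the other direction, at -1.02.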

How the results depend on the processing

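The count of 0 called genes for the isotype T785-ISAC against its antibody held in 12 of 13 settings other than leaving out a tumour, and in all 10 that left out 1 tumour (0 in each). The exception was the fit to the 10 isotype tumours alone, which called 1 gene, Ifnl2; its own spread is then estimated from 2 groups. The count inside 2-fold was 669, and 372 with the margin of 1.5-fold. It ran from 632 to 655 with 1 tumour left out, was 577 without a pseudocount (chosen after seeing the data) and 763 with a pseudocount of 10, which pulls low genes together. The median log2 fold change ran from -0.0058 to 0.056 with 1 tumour left out. T785 on anti-rHER2 called 118 to 184 genes with 1 tumour left out, and the interaction 47 to 67. With equal medians the interaction called 83. Of the 43 key genes, none was called in 21 settings, and 36 to 43 lay inside 2-fold. Signs of up to 5 turned under other processing and of up to 9 with 1 tumour left out, each by less than the gene's residual SD. Tumours with equal replicate numbers had low correlations (-0.11 to 0.20, 2 of 5 over 0.1), but 3 of 5 tumours matched best with their own number. So few tumours cannot settle whether the numbers pair them. With the replicate block, 0 isotype genes, 162 anti-rHER2 genes and 59 interaction genes were called, and 676 lay inside 2-fold. Depth limits the 264 genes under a mean signal of 20.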
